A study of Mus musculus with 6 samples.

Results

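The genes described here are 9 genes of antibody secretion in the mouse prostate, followed by name in a table of 34745 genes. They include the polymeric immunoglobulin receptor (Pigr), which carries IgA across epithelium, and the J chain (Jchain), which holds the IgA dimer together. The others are the plasma cell genes Mzb1, Sdc1 and Irf4, and the B cell genes Cd79a, Cd79b, Ms4a1 and Pou2af1. All 9 were in the table and all 9 passed the filter on low counts, which left 15580 genes to test. RNA of the prostate was sequenced from 6 male C57BL/6 mice that were 6 to 8 weeks old at the start. In the T + E2 group, 3 mice had carried a slow-release pellet of testosterone and estradiol under the skin for 12 weeks, which was exchanged for a fresh pellet every month. In the CON group, 3 mice had the skin of the back opened and closed on the same schedule and received no pellet, so the hormones and the presence of a pellet cannot be told apart. Both hormones were given in the same pellet, so neither hormone can be read alone.

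IgA reaches mucosal fluids by a route that joins 2 cell types. Plasma cells below the epithelium make IgA as a dimer held together by the J chain, and the epithelial cell takes it up with the polymeric immunoglobulin receptor, carries it through the cell and releases it at the lumen with a part of the receptor attached, as secretory IgA. IgM pentamers also hold a J chain and use the same receptor. B cells are recognised by the antigen receptor subunits Cd79a and Cd79b and by the surface protein Ms4a1 (CD20), and plasma cells by Mzb1, a chaperone of antibody assembly, and Sdc1 (CD138).

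Libraries held 14816146 to 16555549 counts on genes. Levels are given as CPM, the counts of a gene relative to the TMM-scaled library total, and as FPKM, which also divides by gene length, where genes are compared with each other. A gene was called a DEG when its adjusted p (edgeR quasi-likelihood test, Benjamini-Hochberg over all genes tested) was under 0.05 and its absolute log2 fold change was over 1. Markers of the seminal vesicle, a gland next to the prostate, set 2 libraries apart. Their summed level was 10322 CPM in CON replicate 2 and 643 CPM in T + E2 replicate 2, and 0.629 to 4.11 CPM in the other 4 mice. The seminal vesicle secretion genes Svs4 and Svs5 alone had 4587 and 5042 CPM in CON replicate 2. Prostate markers were present in all 6 mice, but their summed level was 35222 to 48691 CPM in CON and 10849 to 13593 CPM in T + E2. Of 4 prostate markers, Pbsn, the androgen-dependent probasin gene (log2 fold change -3.29, adjusted p = 2.45e-05 by edgeR), and Tgm4, a secreted transglutaminase (-2.91, adjusted p = 0.000158 by edgeR), were downregulated DEGs, and Msmb, a secretory protein gene (1.10, adjusted p = 0.00122 by edgeR), was an upregulated DEG. Among the members, CON replicate 1 stood apart from the other CON mice, as described below.

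The promoter of Pigr is shown first because Pigr carried the largest change among the members, and that of Jchain because it is the partner in the same route. Both are the 250 bases before the RefSeq transcript start on build GRCm38.p6, read 5′ to 3′ on the strand of the gene. That of Pigr lies at chr1:130826434-130826683 on the plus strand and that of Jchain at chr5:88527898-88528147 on the minus strand. Capitals mark the motifs found.
Pigr: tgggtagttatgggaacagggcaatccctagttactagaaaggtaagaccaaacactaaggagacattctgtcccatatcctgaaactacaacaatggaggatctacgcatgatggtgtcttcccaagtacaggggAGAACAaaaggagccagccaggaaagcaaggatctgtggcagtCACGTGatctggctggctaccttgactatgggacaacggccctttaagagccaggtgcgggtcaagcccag
Jchain: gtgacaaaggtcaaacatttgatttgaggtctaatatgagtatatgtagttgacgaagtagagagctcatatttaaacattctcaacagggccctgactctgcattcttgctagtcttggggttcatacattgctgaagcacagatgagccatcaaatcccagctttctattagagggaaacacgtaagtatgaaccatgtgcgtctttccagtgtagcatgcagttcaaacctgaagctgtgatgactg

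The letters searched, on both strands, were the E-box CACGTG, the octamer ATGCAAAT of B cell promoters, the TATA box TATAAA and the androgen half-site AGAACA, together with the interferon response element and the full estrogen and androgen response elements. The half-site letters lie within the full androgen element. The Pigr promoter held the androgen half-site letters 114 to 109 bases upstream of the start and the E-box 71 to 66 bases upstream. Over 32851 RefSeq promoters of this length, 16.1% held the half-site letters and 6.02% held the E-box. No searched letters were found in the Jchain window. RefSeq promoters were matched for 6 of the 9 members. Of the others, Irf4 held a TATA box 26 to 21 bases upstream, a motif in 12.4% of promoters, and Cd79a, Pou2af1 and Sdc1 held none of the letters searched. A match is a description of the letters and no measure of binding.

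Across the 9 members, 2 were DEGs, Pigr and Cd79b, and both were upregulated. Among all genes tested, 4.27% were upregulated DEGs and 3.38% were downregulated DEGs. By adjusted p alone the count was again 2 of 9, and both were higher in T + E2. Of all genes tested, 10.4% were higher in T + E2 by adjusted p, and 3061 of 15580 passed in either direction. The mean level was higher in the T + E2 group for 9 of 9 members, with a median log2 fold change of 1.14 (1.04 without Pigr), while the median of all genes tested was -0.0021. For 5 members, Pigr, Mzb1, Irf4, Cd79b and Pou2af1, every T + E2 mouse was above every CON mouse by CPM. This pattern was found in 20.0% of all genes tested. By FPKM the groups overlapped for Irf4, with 1.19 in CON replicate 1 and 1.16 in T + E2 replicate 1. An unadjusted p under 0.05 was reached by 7 members, all except Jchain and Cd79a. Of all genes tested, 17.4% both reached it and had a higher level in T + E2.

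**Figure D1:**
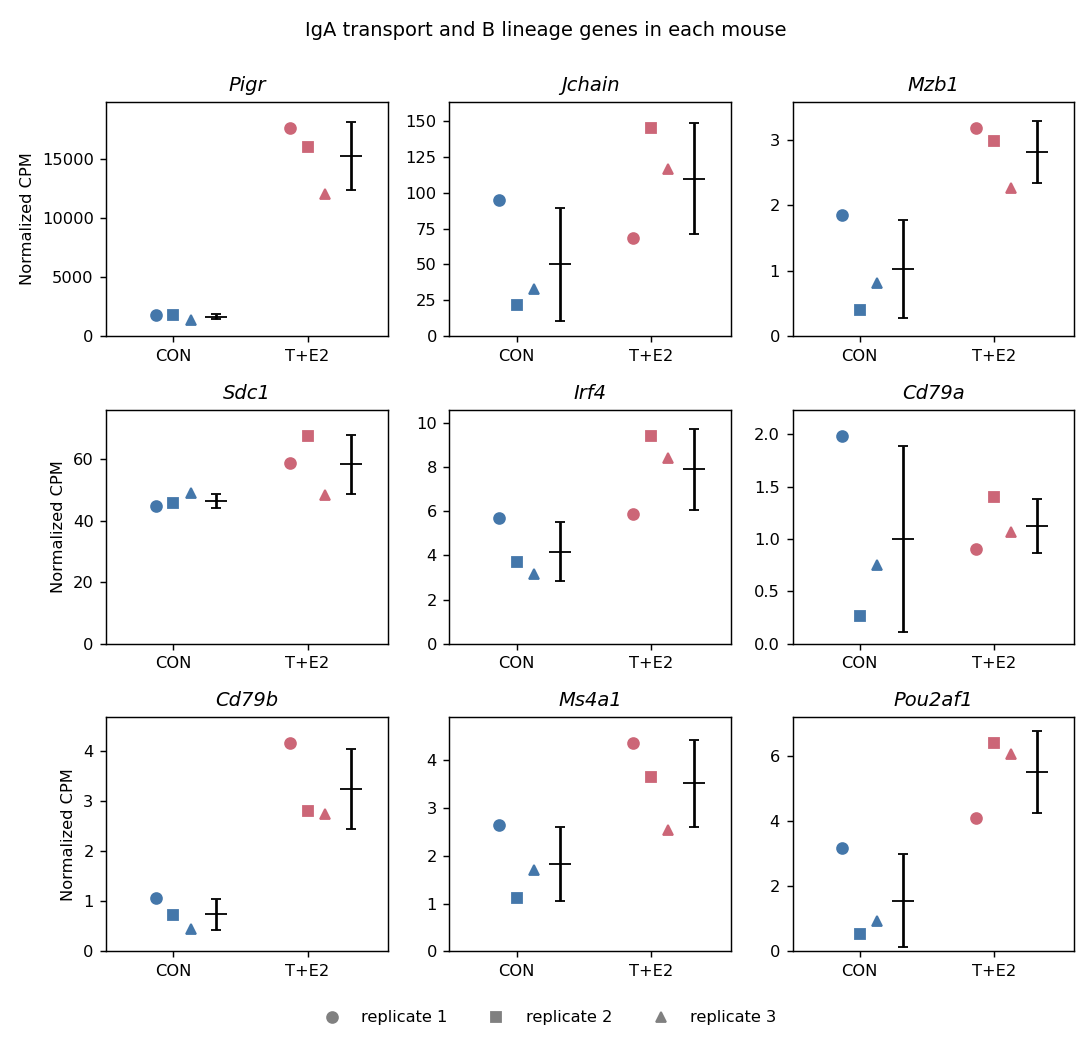
Normalized CPM (vertical axes, from 0) of the 9 members in each mouse of the CON and T+E2 groups, with the mean and SD of the 3 mice as a bar at the right of each group. Pigr, Mzb1, Irf4, Cd79b and Pou2af1 do not overlap between the groups, and CON replicate 1 is the highest CON mouse in 7 of the 8 panels other than Pigr.

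Pigr (ENSMUSG00000026417, chr1:130826684-130852249, plus strand) encodes the receptor that carries polymeric IgA and IgM across the epithelial cell. Its level was 1794, 1758 and 1373 CPM in CON and 17603, 15999 and 12013 CPM in T + E2. Each T + E2 mouse was far above each CON mouse, and within a group the highest and lowest mouse differed by 1.31-fold in CON and 1.47-fold in T + E2. The group means were 1642 ± 233 CPM and 15205 ± 2878 CPM (SD, n = 3 each), and the log2 fold change was 3.21 ± 0.18 (SE), adjusted p = 3.06e-05 by edgeR. Per gene length, Pigr rose from 371 ± 58.3 to 3332 ± 550 FPKM (SD, n = 3 each).

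Pigr was already one of the abundant transcripts of the CON prostate. It took 0.183%, 0.18% and 0.136% of all counts in CON and 1.68%, 1.59% and 1.21% in T + E2. The exact 95% binomial interval of the lowest T + E2 share was 1.21 to 1.22%, and it covers counting error only. Ranked by counts among all genes, Pigr stood at places 29, 32 and 48 in CON and at places 3, 3 and 4 in T + E2. By FPKM the places were 75, 81 and 102 in CON and 14, 16 and 18 in T + E2. In every mouse Pigr had the highest FPKM of the 9 members.

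The change of Pigr was set against listed markers of the luminal epithelium. Which cells held the Pigr transcripts was not measured. In bulk tissue, a larger share of a cell type and more RNA per cell cannot be told apart. Epcam, an adhesion molecule of epithelial cells, was itself upregulated, from 404 ± 17.2 to 916 ± 57.9 CPM (SD, n = 3 each), with a log2 fold change of 1.18 and adjusted p = 0.000175 by edgeR. Krt18, a keratin of luminal cells, was lower, with a log2 fold change of -0.54 and adjusted p = 0.00704 by edgeR. The summed level of 9 luminal markers was 3526 to 3801 CPM in CON and 3825 to 3947 CPM in T + E2. The log2 level of Pigr minus the mean log2 level of Epcam, Cdh1, Krt8 and Krt18 was 1.77 ± 0.296 in CON and 4.76 ± 0.312 in T + E2 (SD, n = 3 each). The difference of 2.99, or 7.95-fold, gave p = 0.1 in a two-sided exact permutation test over mice, the smallest value that 3 against 3 mice can give. Set against Krt8 alone, the difference was 3.34. Markers of the urothelium, the lining of the urinary tract, were higher in T + E2 too, with a summed level of 423 to 643 CPM in CON and 1374 to 1703 CPM in T + E2. Of 5 basal epithelium markers and 6 markers of fibroblasts and smooth muscle, none was a DEG in the edgeR fit, with 1 basal marker, Trp63, higher and 1 stromal marker, Acta2, lower by adjusted p alone. DESeq2 called 0 DEGs in both lists, and 3 basal and 1 stromal marker had an unadjusted p under 0.05 in the edgeR fit. Among them Krt5 had a log2 fold change of 0.21, Krt15 one of 0.59 and Myh11 one of -0.19, with adjusted p of 0.542, 0.0628 and 0.297 by edgeR. Of 4 tested urothelium markers, 2 were upregulated DEGs, the uroplakins Upk1a (log2 fold change 1.80, adjusted p = 0.00109 by edgeR) and Upk2 (2.20, adjusted p = 0.00322 by edgeR). The part of these cells, and of the fall of Pbsn and Tgm4, in the Pigr result was not tested.

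Of the other immunoglobulin receptors listed, 2 of 9 tested were upregulated DEGs. Fcamr, a receptor for IgA and IgM whose gene lies just before Pigr on chromosome 1, had 9.75 to 12.7 CPM in CON and 30.4 to 34.2 CPM in T + E2. Its groups were well separated, with a log2 fold change of 1.57 ± 0.13 (SE) and adjusted p = 0.000195 by edgeR. Fcgr2b, the inhibitory IgG receptor of B cells and macrophages, rose from 12.8 ± 3.78 to 28.3 ± 6.75 CPM (SD, n = 3 each), with a log2 fold change of 1.14 and adjusted p = 0.0143 by edgeR. Fcgr2b was a DEG under 11 of 16 alternative settings, and no longer without CON replicate 2 (0.98, adjusted p = 0.0398 by edgeR), CON replicate 3 (1.07, adjusted p = 0.0561 by edgeR) or T + E2 replicate 2 (0.97, adjusted p = 0.0543 by edgeR).

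The genes within 250 kb of Pigr were looked at after the values of Pigr were seen. Of 9 tested besides Pigr, 2 were DEGs, Fcamr and Gm15848, 1 passed by adjusted p alone and 6 did not pass. Between Fcamr and Pigr, the antisense gene Gm15848 went from 1.37 ± 0.269 to 10.2 ± 2.12 CPM (SD, n = 3 each), with a log2 fold change of 2.90 and adjusted p = 0.000237 by edgeR. Its span overlaps that of Fcamr on the opposite strand, and whether counting used the strand is not given in the sources used here, so reads of Fcamr and Gm15848 cannot be told apart where the genes overlap. Farther away, Pfkfb2, an enzyme of glycolysis control, had a log2 fold change of 0.38 (adjusted p = 0.0438 by edgeR). Yod1, whose span lies within that of Pfkfb2 on the opposite strand, had a log2 fold change of 0.15 (adjusted p = 0.387 by edgeR) and Mapkapk2, a kinase of the stress response, one of 0.08 (adjusted p = 0.639 by edgeR). AA986860 and Gm28856, which lie nearer to Pigr, had log2 fold changes of 0.51 and 0.77 (adjusted p = 0.149 and 0.172 by edgeR). Fcmr, the IgM receptor gene that follows Pigr, was at 0 CPM in every CON mouse and at a mean of 0.0425 CPM in T + E2, below the 0.181 to 0.202 CPM that 3 counts are worth.

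Among 20 known regulators of Pigr transcription, all of them tested, 1 was an upregulated DEG and none was a downregulated DEG. This was Tlr4, the receptor for bacterial lipopolysaccharide. It had 3.11, 1.64 and 11.4 CPM in CON and 18.1, 23.8 and 19.4 CPM in T + E2, with a log2 fold change of 1.92 and adjusted p = 0.049 by edgeR, and it was a DEG under 8 of 16 alternative settings. DESeq2 called 0 of the 20. By adjusted p alone, 3 regulators were higher and 4 were lower in the edgeR fit, and 14 had an unadjusted p under 0.05. Il4ra, the receptor for interleukin 4, was among the higher ones (log2 fold change 0.86, adjusted p = 0.00487 by edgeR), and Ifngr1, a receptor chain for interferon gamma, among the lower ones (-0.69, adjusted p = 0.00208 by edgeR). Both were picked from the list after their values were seen. Of the most abundant regulators, the signal transducer Stat6 had a log2 fold change of -0.22 (adjusted p = 0.0856 by edgeR) and Nfkb1, a subunit of NF-kappaB, one of -0.22 (adjusted p = 0.227 by edgeR).

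The machinery that moves the receptor through the cell had no DEG by edgeR or DESeq2, and 5 of its genes had an unadjusted p under 0.05 in the edgeR fit. Of 16 genes of epithelial transcytosis, 1 was higher and 1 was lower by adjusted p alone, and their median log2 fold change was 0.0051. The gene that was higher was Rab11fip1, a partner of the recycling GTPase Rab11 (0.59, adjusted p = 0.0171 by edgeR), and the gene that was lower was Rab3d, a GTPase of secretory vesicles (-0.61, adjusted p = 0.00673 by edgeR).

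Jchain (ENSMUSG00000067149, chr5:88519809-88527891, minus strand) encodes the small chain that joins IgA dimers and IgM pentamers. It had 95.3, 21.9 and 32.7 CPM in CON and 68.1, 145 and 116 CPM in T + E2. The groups overlapped, because CON replicate 1 was above T + E2 replicate 1. The means were 49.96 ± 39.6 and 110 ± 39.0 CPM (SD, n = 3 each), and the log2 fold change of 1.14 ± 0.52 (SE) did not pass the test, adjusted p = 0.16 by edgeR. Without CON replicate 1 it was 2.01, adjusted p = 0.01 by edgeR, and without CON replicate 2 it was 0.78, adjusted p = 0.304 by edgeR. Jchain was second to Pigr by FPKM in 5 of the 6 mice, with 6.14 to 26.6 FPKM in CON and 17.8 to 39.5 FPKM in T + E2.

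Set against Ptprc (CD45), which all leukocytes carry, Jchain was 0.82 higher on the log2 scale in the T + E2 group, from 1.71 ± 0.676 to 2.53 ± 0.352 (SD, n = 3 each). A two-sided exact permutation test over mice gave p = 0.2. Ptprc itself had 19.6, 11.2 and 8.68 CPM in CON and 15.1, 24.4 and 15.8 CPM in T + E2, so that CON replicate 1 was the highest CON mouse for this gene too. Its log2 fold change was 0.49, adjusted p = 0.301 by edgeR.

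The antibody chains give the class that Jchain could be joined to. Igha, the constant region of IgA, had 56.5, 80.1 and 114 CPM in CON and 479, 290 and 222 CPM in T + E2. Its groups did not overlap, and it was an upregulated DEG, with a log2 fold change of 1.98 ± 0.33 (SE) and adjusted p = 0.00494 by edgeR. Ighm, the constant region of IgM, had 1084, 67.3 and 98.8 CPM in CON and 474, 925 and 999 CPM in T + E2. CON replicate 1 was the highest of all 6 mice for Ighm, and the log2 fold change of 0.94 did not pass the test (adjusted p = 0.512 by edgeR). Igkc, the kappa light chain, had 501, 87.5 and 148 CPM in CON and 496, 674 and 620 CPM in T + E2, with a log2 fold change of 1.28 (adjusted p = 0.145 by edgeR). CON replicate 1 was thus the highest CON mouse for Jchain, Ighm and Igkc and the lowest for Igha.

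Over all 12 constant region genes, 10 were tested, 1 was a DEG and the median log2 fold change was 0.98. Without CON replicate 1, 6 of 10 were upregulated DEGs, where 4.52% of all genes tested were. CON replicate 1 was the highest CON mouse for Ighm, Igkc, Iglc1, Iglc2 and Iglc3, so that fit lacks their highest CON value. Without CON replicate 2 and without CON replicate 3, 1 constant region gene was a DEG each time. Per kappa chain, Jchain stayed within a narrow range. The FPKM ratio of Jchain to Igkc was 0.0277 to 0.0364 in CON and 0.02 to 0.0314 in T + E2, and the groups overlapped (two-sided exact permutation p = 0.2). The ratio of Jchain to Igha was 1.39 in CON replicate 1, 0.224 and 0.236 in the other CON mice, and 0.117 to 0.431 in T + E2 (two-sided exact permutation p = 0.6). These 2 tests were among 6 ratios compared, and none could go below 0.1.

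**Figure D2:**
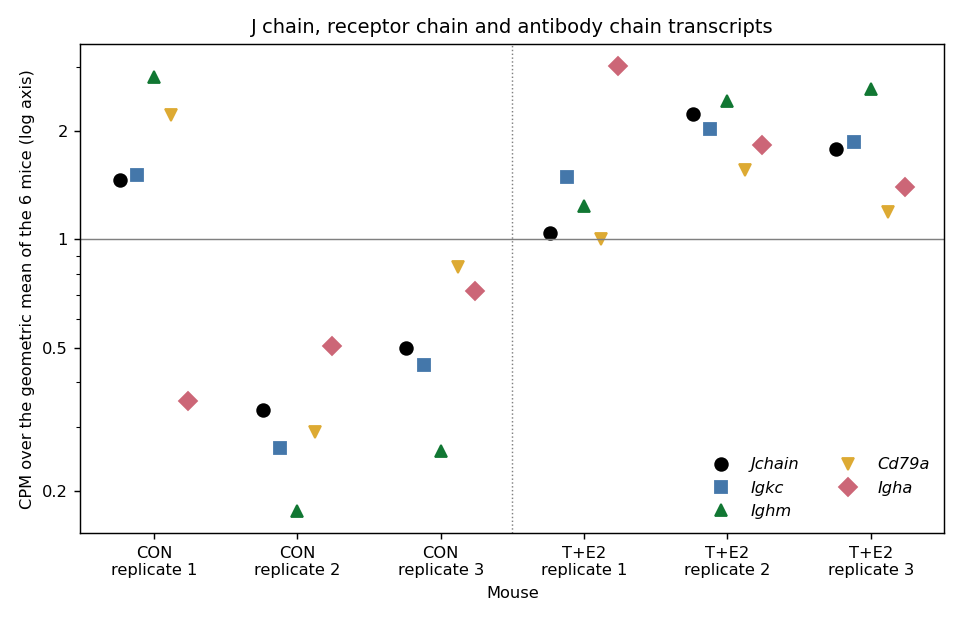
CPM of Jchain, Igkc, Ighm, Cd79a and Igha in each mouse, divided by the geometric mean of the gene over the 6 mice (vertical axis, log scale). CON replicate 1 lies above 1 for every gene except Igha, while the other CON mice lie below 1 for all 5 genes.

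The genes whose log2 CPM followed Pigr and Jchain most closely over the 6 mice are given as a description, with no test. For Pigr these were Gabrb1, Gemin5, Bmp2k, Smpdl3a and Rab44, with Pearson r from 0.9986 to 0.9993, and all 5 were higher in the T + E2 group by adjusted p. With 6 mice in 2 groups, a high r can come from the difference between the groups alone. For Jchain they were Gm12359, Rbpsuh-rs3, Phlpp2, Ighv2-9-1 and Itgae, with r from 0.9881 to 0.9943, and none of these passed the test between groups. In the order of likeness to Jchain, Igkc stood at place 13, Ighm at place 21 and Igha at place 4635. In the order of likeness to Pigr, Igha stood at place 1271, Igkc at place 3158 and Ighm at place 4277.

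Among the plasma cell members, Mzb1, the chaperone of antibody assembly, had 1.85, 0.394 and 0.817 CPM in CON and 3.18, 2.98 and 2.27 CPM in T + E2. The groups did not overlap, but the log2 fold change of 1.46 ± 0.48 (SE) missed the threshold, adjusted p = 0.0675 by edgeR. These levels rest on 6 to 28 counts in CON and 34 to 49 counts in T + E2. In the annotation GENCODE M21, Mzb1 shares 2100 bases with SPATA24 on the same strand, for which no counts are at hand. This is nearly the whole span of Mzb1 (chr18:35647266-35649367). Whether this overlap affected the counts of Mzb1 was not tested.

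Irf4, a transcription factor that plasma cells need and that other activated lymphocytes and myeloid cells also express, had 5.70, 3.68 and 3.14 CPM in CON and 5.88, 9.44 and 8.41 CPM in T + E2. By CPM the lowest T + E2 mouse, T + E2 replicate 1, lay just above the highest CON mouse, CON replicate 1. By FPKM T + E2 replicate 1 lay just below CON replicate 1, at 1.16 against 1.19. The log2 fold change was 0.92 ± 0.28 (SE), adjusted p = 0.052 by edgeR.

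Sdc1, a surface proteoglycan of plasma cells that epithelial cells also make, had 44.8, 45.6 and 49.0 CPM in CON and 58.9, 67.7 and 48.5 CPM in T + E2. T + E2 replicate 3 lay within the CON range. The log2 fold change was 0.33 ± 0.13 (SE), adjusted p = 0.11 by edgeR. Sdc1 was the only member besides Pigr for which the CON mice differed by less than 1.5-fold, 1.09-fold from lowest to highest.

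Of 11 other plasma cell genes tested, none was a DEG or passed the adjusted p in the edgeR fit, and their median log2 fold change was -0.02. An unadjusted p under 0.05 was reached by 3 of the 11, and DESeq2 called 0 DEGs and passed 2 by adjusted p. Xbp1, which drives the secretory programme and is also active in gland cells, had a log2 fold change of 0.13 (adjusted p = 0.38 by edgeR), with levels of 291 to 337 CPM in CON and 345 to 361 CPM in T + E2. Txndc5, a protein folding enzyme, had a log2 fold change of 0.01 (adjusted p = 0.979 by edgeR). Derl3, fixed as a plasma cell marker, had 118 to 227 CPM in CON and 143 to 180 CPM in T + E2, far above the level of Mzb1. Tnfrsf17 (BCMA), the survival receptor of plasma cells, had 10, 0 and 5 counts in CON and 13, 4 and 6 counts in T + E2 and was too low to test.

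Among the B cell members, Cd79b (ENSMUSG00000040592, chr11:106311341-106314762, minus strand) was the DEG. It encodes the beta subunit of the signalling pair of the B cell antigen receptor. It had 1.06, 0.723 and 0.44 CPM in CON and 4.15, 2.80 and 2.74 CPM in T + E2, from 7 to 16 counts in CON and 41 to 60 counts in T + E2. Every T + E2 mouse was above every CON mouse. The means were 0.741 ± 0.31 and 3.23 ± 0.799 CPM (SD, n = 3 each), and the log2 fold change was 2.11 ± 0.36 (SE), adjusted p = 0.00565 by edgeR.

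Cd79a, the alpha subunit that pairs with Cd79b, had 1.99, 0.263 and 0.755 CPM in CON and 0.899, 1.40 and 1.07 CPM in T + E2. CON replicate 1 was the highest of all 6 mice and CON replicate 2 the lowest. The log2 fold change of 0.17 ± 0.60 (SE) did not pass the test (adjusted p = 0.867 by edgeR), and its sign changed without CON replicate 2, to -0.28. The FPKM ratio of Cd79b to Cd79a was 0.369, 1.90 and 0.404 in CON and 3.19, 1.38 and 1.77 in T + E2. CON replicate 2 lay among the T + E2 mice, and a two-sided exact permutation test of the ratio gave p = 0.3. A difference between the subunits in their response was thus not shown.

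Ms4a1 (CD20), a surface protein of mature B cells, had 2.65, 1.12 and 1.70 CPM in CON and 4.36, 3.65 and 2.54 CPM in T + E2. CON replicate 1 lay just above T + E2 replicate 3, and the log2 fold change was 0.95 ± 0.36 (SE), adjusted p = 0.1 by edgeR. The whole span of Ms4a1 lies within that of 4930526L06Rik on the opposite strand, which had 1489 counts over the 6 mice against 245 for Ms4a1, so that without strand the reads of these genes cannot be told apart. By FPKM Ms4a1 was the lowest member in every mouse.

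Pou2af1, a coactivator that works with the octamer factors of B cells, had 3.18, 0.526 and 0.943 CPM in CON and 4.08, 6.39 and 6.07 CPM in T + E2. Each T + E2 mouse was above each CON mouse, and the CON mice differed by 6.05-fold among themselves. The log2 fold change was 1.83 ± 0.55 (SE), adjusted p = 0.0529 by edgeR. Without CON replicate 1 it was 2.89, adjusted p = 0.00384 by edgeR.

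Of 24 other B cell genes, 11 had counts high enough to test. None of these was a DEG, 2 were higher and 1 was lower by adjusted p alone in the edgeR fit, and their median log2 fold change was -0.1. An unadjusted p under 0.05 was reached by 4 of the 11, and DESeq2 also called 0 DEGs. Cd72, a B cell surface receptor also found on macrophages, rose from 1.49 ± 0.16 to 2.66 ± 0.293 CPM (SD, n = 3 each), with a log2 fold change of 0.83 and adjusted p = 0.0446 by edgeR. Bcl11a, a transcription factor of B cells and other lineages, had a log2 fold change of 0.69 (adjusted p = 0.0107 by edgeR). Blnk, an adaptor of the B cell receptor, was lower, with a log2 fold change of -0.58 (adjusted p = 0.00996 by edgeR) and a level of 104 to 119 CPM in CON, far above that of Cd79a.

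Other B cell genes were close to the limit of detection. Pax5, the factor that fixes B cell identity, had 5, 0 and 3 counts in CON and 1, 5 and 4 counts in T + E2. Cd22, an inhibitory receptor named here after its values were seen, had 2, 0 and 2 counts in CON and 10, 11 and 7 counts in T + E2. Cd22 was higher in each T + E2 mouse than in each CON mouse, and neither gene had enough counts to be tested. The B cell label of the members thus rests on few reads, with at most 105 counts in a mouse for any of the 4 B cell members. Of 8 genes of B cell precursors, 2 could be tested, and Lef1, which T cells and other tissues also express, was lower, from 2.91 ± 0.482 to 1.45 ± 0.254 CPM (SD, n = 3 each; log2 fold change -1.01, adjusted p = 0.032 by edgeR). Lef1 was a DEG under 6 of 16 alternative settings. The other, the interleukin 7 receptor gene Il7r, had a log2 fold change of -0.11 (adjusted p = 0.901 by edgeR).

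The number of DEGs among the members depended on which CON mice were kept. Of the 8 members other than Pigr, CON replicate 1 was the highest CON mouse for 7 and CON replicate 2 the lowest for 5. From lowest to highest CON mouse, the levels differed 7.56-fold for Cd79a, 6.05-fold for Pou2af1, 4.70-fold for Mzb1 and 4.35-fold for Jchain, and in T + E2 no member besides Jchain differed by more than 1.72-fold. Without CON replicate 1, 7 of 9 members were DEGs, Pigr, Jchain, Mzb1, Irf4, Cd79b, Ms4a1 and Pou2af1. In that fit 4.52% of all genes tested were upregulated DEGs. Leaving out CON replicate 1 removes the highest CON value of 8 of the 9 members, which does not hold for every gene tested. Without CON replicate 2 and without CON replicate 3, 2 members were DEGs each time, Pigr and Cd79b. Without both mice with seminal vesicle transcripts, a setting chosen after the data were seen, Pigr alone was a DEG, and Cd79b had a log2 fold change of 2.19 and adjusted p = 0.0526 by edgeR.

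**Figure D3:**
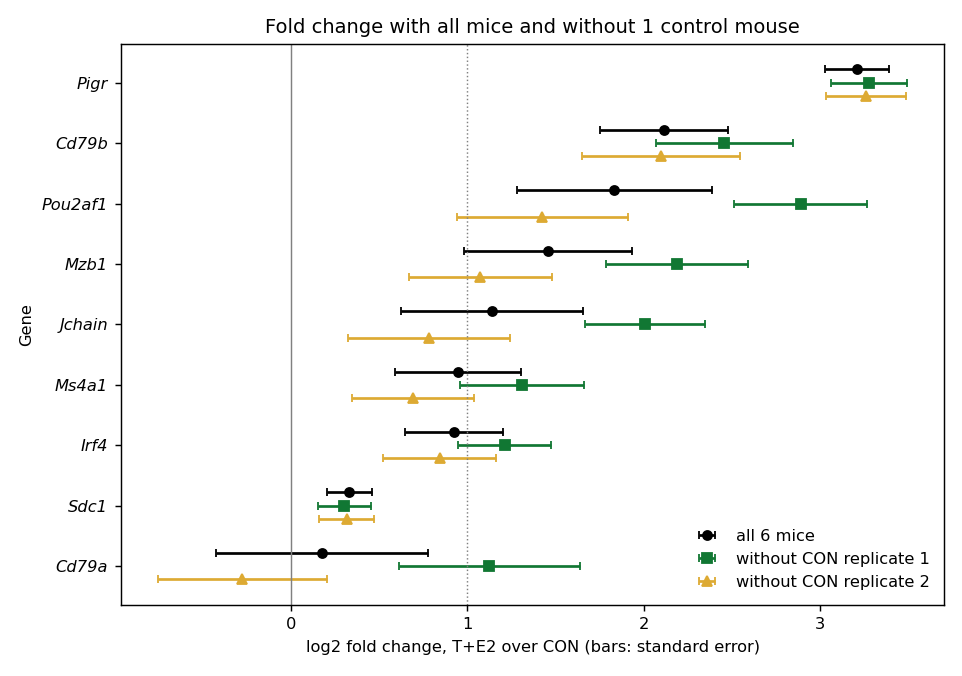
Log2 fold change (T+E2 over CON, horizontal axis) of the 9 members with its standard error, with all 6 mice, without CON replicate 1 and without CON replicate 2. Pigr stays between 3.21 and 3.28, while Jchain runs from 0.78 to 2.01 and Cd79a from -0.28 to 1.12.

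Other leukocyte markers were looked at beside these genes. Of 5 pan-leukocyte markers, none was a DEG and 1, Cd53, was higher by adjusted p alone in the edgeR fit. Their summed level was 57.7 to 125 CPM in CON and 102 to 140 CPM in T + E2. The highest CON sum was that of CON replicate 2, a mouse with seminal vesicle transcripts. Without CON replicate 2, and also without T + E2 replicate 3, 1 of these markers was a DEG. The most abundant were Cd52 (log2 fold change 0.78, adjusted p = 0.38 by edgeR) and Laptm5 (0.13, adjusted p = 0.588 by edgeR). Of 7 T cell markers tested, none passed the adjusted p in the edgeR fit, and their summed level was 7.92 to 18.3 CPM in CON and 8.01 to 13.6 CPM in T + E2. Lck had a log2 fold change of -0.41 (adjusted p = 0.399 by edgeR) and Cd8a one of 0.11 (adjusted p = 0.904 by edgeR). Of 8 macrophage markers, 2 were upregulated DEGs, the scavenger receptors Mrc1 (log2 fold change 1.14, adjusted p = 0.0135 by edgeR) and Cd163 (1.41, adjusted p = 0.00758 by edgeR). By adjusted p, 4 of the 8 were higher, these DEGs among them, and 0 were lower. The summed level of the macrophage markers was 182 to 241 CPM in CON and 281 to 446 CPM in T + E2. Mrc1 was a DEG under 12 of 16 alternative settings and Cd163 under 15, and Mrc1 no longer without CON replicate 3 (1.01, adjusted p = 0.0513 by edgeR) or T + E2 replicate 2 (0.85, adjusted p = 0.029 by edgeR). Of 7 markers of dendritic and plasmacytoid cells tested, none was a DEG, and Bst2 (log2 fold change 0.75, adjusted p = 0.00325 by edgeR) and Tcf4 (0.63, adjusted p = 0.00738 by edgeR) were higher by adjusted p alone. DESeq2 called no DEG among the pan-leukocyte, T cell and dendritic markers either. An unadjusted p under 0.05 was reached by 1 pan-leukocyte, 0 T cell and 3 dendritic markers in the edgeR fit. The part of these cells in the changes of the members was not tested.

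Among signals that draw plasma cells to a mucosa, Ccl28 changed most. Ccl28 is a chemokine of epithelial cells that attracts IgA plasma cells through the receptor Ccr10. It had 1.59, 0.92 and 0.314 CPM in CON and 53.1, 119 and 96.8 CPM in T + E2, from 5 to 24 counts in CON and 767 to 1950 counts in T + E2. The groups were far apart, with a log2 fold change of 6.57 ± 0.47 (SE) and adjusted p = 8.92e-05 by edgeR. Ccr10 itself, named here as its receptor, had 1 to 3 counts in CON and 3 to 6 counts in T + E2 and was too low to test. Of 9 genes of plasma cell homing tested, Ccl28 and the B cell chemokine Cxcl13 were the DEGs. By adjusted p, 4 of the 9 were higher, these DEGs among them, and 1 was lower. The lower gene was the chemokine gene Cxcl12, with a log2 fold change of -0.58 (adjusted p = 0.0236 by edgeR). Cxcl13 had 11.2, 9.99 and 11.4 CPM in CON and 15.4, 34.3 and 18.8 CPM in T + E2, with a log2 fold change of 1.08 and adjusted p = 0.032 by edgeR, and it was a DEG under 8 of 16 alternative settings. It was also the only one of 8 listed genes of lymph node structure with counts high enough to test, and its receptor gene Cxcr5 had 1 to 2 counts in CON and 4 in each T + E2 mouse.

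Of 7 tested genes for signals of IgA switching and plasma cell survival, 1 was a DEG, and their median log2 fold change was -0.07. The DEG was Aldh1a2, an enzyme that makes retinoic acid, a signal that favours IgA in the gut. It had 10.99, 7.62 and 9.05 CPM in CON and 216, 211 and 166 CPM in T + E2. The groups were far apart, with a log2 fold change of 4.42 ± 0.18 (SE) and adjusted p = 7.68e-06 by edgeR. Aldh1a1, a related enzyme, was higher by a log2 fold change of 0.60 (adjusted p = 0.00984 by edgeR), below the fold threshold. Tnfsf13 and Tnfsf13b of the same list had log2 fold changes of -0.57 and -0.65 and did not pass the test (adjusted p = 0.274 and 0.205 by edgeR). Pigr, Fcamr, Ccl28 and Aldh1a2 were each DEGs under 16 of 16 alternative settings, and Igha under all 15 that held it.

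**Figure D4:**
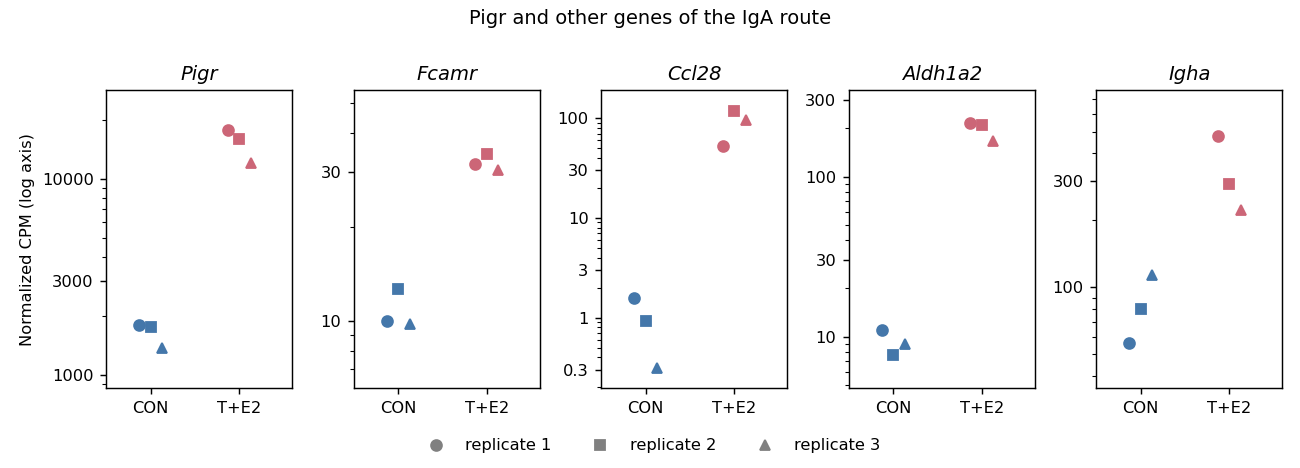
Normalized CPM (vertical axes, log scale, each panel with its own range) of Pigr, Fcamr, Ccl28, Aldh1a2 and Igha in each mouse. In all 5 panels the 3 T+E2 mice lie above the 3 CON mice. The largest distance is that of Ccl28 (0.314 to 1.59 CPM against 53.1 to 119 CPM). All 5 genes shown are DEGs, so their separation is no further result. Jchain, whose groups overlapped, and the listed genes that were not DEGs are left out.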

How the data were processed

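RNA-seq of mouse prostate, 3 CON and 3 T + E2 mice, was taken from 1 deposited table. The authors deposited raw counts per gene, without normalization, and FPKM values that they computed from them. The labels name TopHat, Bowtie2 and HTSeq among the submitters' processing notes, without versions. The build and annotation are not given in the sources used here, and 34267 identifiers occur in GENCODE M21 (GRCm38), which has the same start and end for 6 of the 9 members. The counts were compared in R 4.3.3 with edgeR 4.0.16 (filterByExpr with minimum count 10 and minimum total count 15, TMM, glmQLFit, glmQLFTest), and p-values received a Benjamini-Hochberg adjustment over 15580 genes. The biological coefficient of variation was 18%. Standard errors are the log2 fold change over the root of F. Log2 levels for ratios to markers and for likeness used a prior count of 2. Single values were compared by exact permutation over mice in scipy 1.17.1.

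Alternatives were median-of-ratios and total-count scaling, DESeq2 1.42.0, other filters on low counts, limma 3.58.1 on log2(FPKM + 0.1) and log2(FPKM + 1) for genes with FPKM of at least 0.1 in 3 mice, no immunoglobulin segments, a replicate block, and each mouse left out. The procedure was tested on simulated data. Mice within a group differed beyond sampling noise (chi-square per degree of freedom 17.6 to 38.4), so each counted as 1 replicate. The 9 members and the 20 lists of other genes (207 genes) were chosen with earlier results of these data known. The text names all members, the most changed DEGs of each list (at most 4), the 2 most abundant genes where fewer than 2 were DEGs, Igha, Ighm, Igkc and Ptprc, the 5 genes most like Pigr and Jchain, and fixed cell type markers, some of which are not reported here. Genes named otherwise, such as Cd53, Cd72, Il4ra, Ifngr1, Cxcl12, Tnfsf13, Tnfsf13b, Ccr10 and Cd22, were picked with their values seen. Promoter sequences are from RefSeq. Ccl21a, with a symbol that 2 or more rows share, was left out.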

Additional observations from a re-analysis of the deposited data

How the results depend on the processing

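Pigr was a DEG under 16 of 16 alternatives (log2 fold change 3.09 to 3.36) and Cd79b under 14 of 16 (0.88 to 2.46). The 2 DEGs among the members became 4 with DESeq2 (Pigr, Mzb1, Cd79b and Pou2af1) and 1 with limma on log2(FPKM + 1). They became 3, with Pou2af1 added, with no filter on low counts, with limma on log2(FPKM + 0.1) and without immunoglobulin segments. There was 1 without both mice with seminal vesicle transcripts, a setting added after the data were seen. By adjusted p alone the 2 members became 5 with DESeq2, 4 with no filter on low counts and 4 with limma on log2(FPKM + 1). They became 3 with limma on log2(FPKM + 0.1), 4 without immunoglobulin segments and 1 without both mice with seminal vesicle transcripts. Leaving out each mouse in turn gave 2 to 7 members by either count, the 7 without CON replicate 1. Cd79a, never past the test, had 1.12 without CON replicate 1 and changed sign without CON replicate 2 (-0.28), without T + E2 replicate 2 (-0.02) and without both mice with seminal vesicle transcripts (-0.47). Of the members that were not DEGs, Pou2af1 became one under 5 alternatives, Mzb1 and Irf4 under 2 each, Jchain and Ms4a1 under 1 each, and Sdc1 and Cd79a under none of the 16. The cause of these changes was not tested, except that leaving out CON replicate 1 removes the highest CON value of 8 of the 9 members. The replicate block again gave 2 DEGs among the members. Mice that share a replicate number are different animals, and their deviations from the group means correlated by -0.052, 0.028 and 0.046, so the numbers were not read as a pairing. Over all genes the block gave 1013 DEGs against 1191. The log2 difference of Pigr against luminal markers ranged from 2.83 to 3.17 when mice were left out, and that of Jchain against Ptprc from 0.45 to 1.10. At this depth 3 counts were worth 0.181 to 0.202 CPM, which limits Cd22, Pax5 and Tnfrsf17 most.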
